A study of Mus musculus with 12 samples.

Results

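The calcium/calmodulin kinase genes described here are 8 mouse genes taken from a fixed list: the CaMKII genes Camk2a, Camk2b, Camk2d and Camk2g, the genes Camk4 and Camk1d of other calmodulin-dependent kinases, and Camkk1 and Camkk2 of the kinases that activate them. All 8 were found among the 21887 protein-coding genes of the RefSeq GRCm38.p6 gene table on chromosomes 1 to 19, X and Y. The data are peak lists of lysine crotonylation (Kcr) from chromatin immunoprecipitation and sequencing with a pan-Kcr antibody, made from dorsal hippocampus of C57BL/6J mice. The learning library came from mice trained in spatial object recognition, a task on remembered object places, and the homecage library from mice left in their cages. The labels of these 2 libraries give no age or sex, no further allele or agent, and no number of animals. Each condition has 1 antibody library, so no difference between the lists has a replicate check and no p-value is given. The other 10 of the 12 libraries were not analysed here. For each gene, every peak in the gene body or within 5 kb of its ends was taken, called the gene window below. Together the 8 windows span 1.32 Mb.

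Calcium entering a neuron binds calmodulin, and calcium-loaded calmodulin switches these kinases on. CaMKII is an abundant holoenzyme of the postsynaptic density that phosphorylates glutamate receptors and stays active through autophosphorylation, and it is known for its part in long-term potentiation in the hippocampus. CaMKIV acts mostly in the nucleus, where it phosphorylates CREB, and CaMKI acts mostly in the cytoplasm. Both are phosphorylated in their activation loops by the calmodulin-dependent kinase kinases. Lysine crotonylation is an acylation found on histones, where it is associated with active promoters and enhancers.

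The start of transcription is where the lists can be set beside a DNA sequence. The RefSeq table of start windows, each running from 250 bases before an annotated start to 50 after, holds 6 windows of 5 of the kinase genes (Camk1d has 2). Camk2a, Camk2g and Camk4 are not among the matched entries. A learning peak lay over 1 of the 6 windows and a homecage peak over 2 of them. Over all 21263 start windows of protein-coding genes, the shares were 5.21% and 19.9%, so counts this small cannot be set apart from the background. The windows of 3 starts are printed because they show the 3 arrangements seen: peaks of both lists over the start (Camk1d, outer start, chr2:5714713-5715012, minus strand), a homecage peak alone (Camk2d, chr3:126596701-126597000, plus strand), and homecage peaks on both sides of a start that itself has none (Camkk2, chr5:122779361-122779660, minus strand). The sequences are from RefSeq GRCm38.p6 and read 5′ to 3′ in the direction of the gene, with matches to searched motifs in capitals.
Camk1d: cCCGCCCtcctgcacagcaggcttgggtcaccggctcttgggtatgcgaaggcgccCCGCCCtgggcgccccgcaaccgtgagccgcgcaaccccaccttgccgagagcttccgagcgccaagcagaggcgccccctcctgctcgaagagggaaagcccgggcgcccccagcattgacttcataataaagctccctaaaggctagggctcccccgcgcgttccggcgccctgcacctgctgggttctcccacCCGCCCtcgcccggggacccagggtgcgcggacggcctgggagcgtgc
Camk2d: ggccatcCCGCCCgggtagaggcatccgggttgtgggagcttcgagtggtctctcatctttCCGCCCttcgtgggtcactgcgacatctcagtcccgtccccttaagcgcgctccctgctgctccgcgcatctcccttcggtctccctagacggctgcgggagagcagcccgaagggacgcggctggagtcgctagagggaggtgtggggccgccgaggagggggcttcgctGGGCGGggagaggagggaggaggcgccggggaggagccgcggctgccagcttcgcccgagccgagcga
Camkk2: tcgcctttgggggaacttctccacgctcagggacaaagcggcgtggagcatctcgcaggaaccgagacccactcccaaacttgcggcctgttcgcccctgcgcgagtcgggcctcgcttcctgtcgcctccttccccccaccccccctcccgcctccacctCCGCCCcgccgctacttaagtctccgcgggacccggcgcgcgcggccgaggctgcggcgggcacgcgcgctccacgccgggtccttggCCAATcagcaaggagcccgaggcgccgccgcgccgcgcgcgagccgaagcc

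The motifs searched, on both strands, were the full cAMP response element (letters TGACGTCA), its core (TGACG, which is also part of the full element), the GC box (GGGCGG), the CCAAT box (CCAAT) and the TATA box (TATAAA). The 3 windows have 3, 3 and 1 GC boxes, and the Camkk2 window has 1 CCAAT box that begins on the last base before the start. A GC box is held by 46.2% of all start windows of protein-coding genes and a CCAAT box by 38.2%. None of the 6 windows has the full response element (2.23% of all windows) or a TATA box (12.6%), and only the Camkk1 window has the core (23.6% of all windows). The GC content was 71.3% at the outer Camk1d start, 70.3% at Camk2d, 73.3% at Camkk2, 77.3% at Camk2b and 75.3% at Camkk1, against a median of 56.3% over all windows. The inner Camk1d start was the exception, with 48.7%. A match describes letters in a window and says nothing on binding.

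At the outer Camk1d start the learning peak (chr2:5714680-5715029, 350 bp) covered all 300 bases of the window. A homecage peak of 789 bp (chr2:5714359-5715147) covered it as well and contained the whole learning peak. At the Camk2d start the homecage peak was 1298 bp wide (chr3:126596548-126597845), wider than 98.9% of the homecage list, and no learning peak lay within 314 kb of the gene. The remaining 4 starts had homecage peaks beside them and none over them. At Camkk2 a homecage peak of 1270 bp ended 512 bp upstream of the start and another of 934 bp began 211 bp downstream, which left 722 bp between them. At Camkk1 a peak of 1342 bp began 141 bp downstream, and the nearest upstream peak was 2226 bp away. At Camk2b a peak of 773 bp lay 268 bp upstream and the next downstream was 1333 bp away. The inner Camk1d start had a peak of 337 bp beginning 139 bp downstream. In a list this long, nearly any start without a peak over it lies in a gap between peaks. How often homecage peaks lie this near to a start was not counted over all start windows. No learning peak lay at any of these 4 starts. Whether base composition, read mapping or nucleosome position moves with such gaps was not tested.

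**Figure D1:**
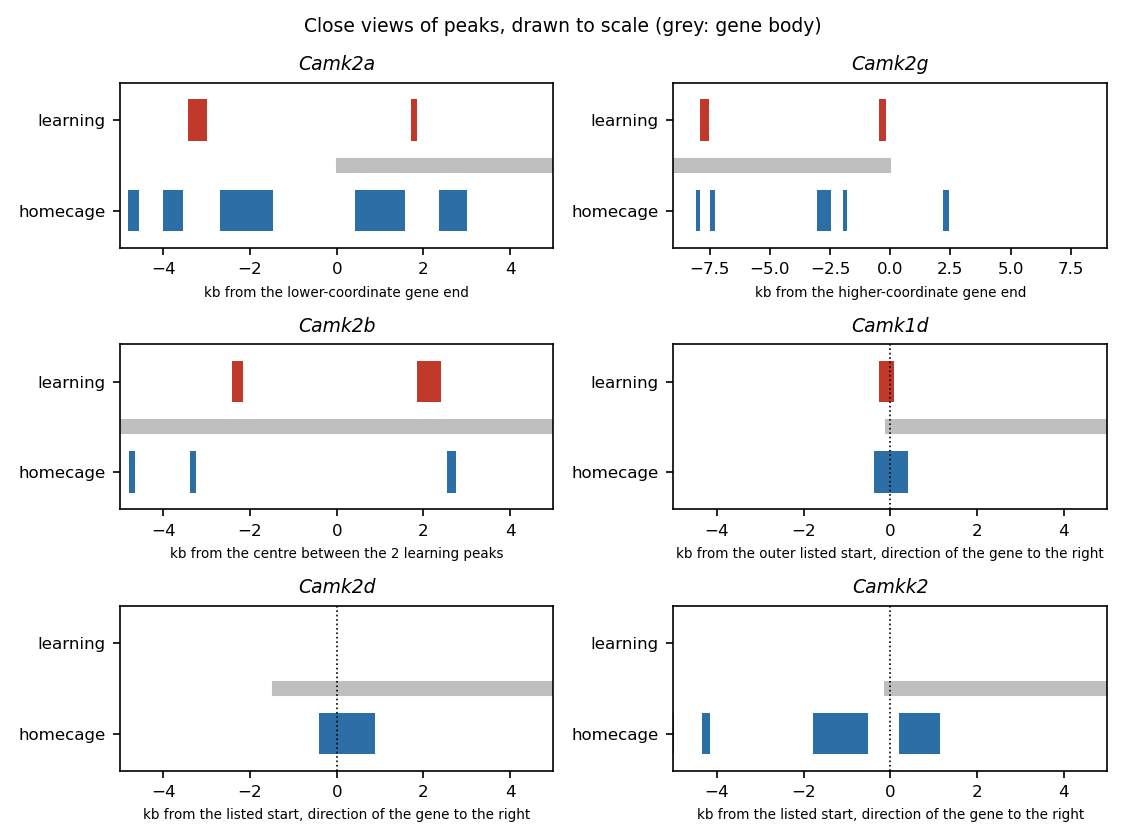
Learning peaks (red) and homecage peaks (blue) near 6 kinase genes, to scale, by distance in kb from a gene end, from the centre of a peak pair or from a listed start (dotted line, gene direction to the right). Both lists have a peak over the Camk1d start, the Camk2d start has a homecage peak of 1298 bp alone, and the Camkk2 start lies in 722 bp between homecage peaks of 1270 and 934 bp.

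The lists themselves set the scale of every count. On the assembled chromosomes the learning list has 16002 peaks and the homecage list 331236, a ratio of 20.7. At the kinase genes the counts were 10 and 203, a ratio of 20.3, close to that of the whole lists. With 10 learning peaks this ratio is known only roughly. The files give only peak positions, with no strength, read count or depth, and neighbouring peaks are not independent. Peaks from whole tissue also cannot show in which cells, or in how many, a site was crotonylated. A gene without a learning peak therefore shows only that none was called in the shorter list. Exons and introns, and expression levels, were not used here.

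All 8 kinase genes had homecage peaks, as did 90.5% of all protein-coding genes with the same window rule. Learning peaks lay at 4 of them, Camk2a, Camk2b, Camk2g and Camk1d, and at 30.9% of all protein-coding genes. Longer windows hold more peaks, so the background was also taken by window length. For windows up to 50 kb, 23% of genes had a learning peak and 88.1% a homecage peak. For windows of 50 to 150 kb the shares were 45.3% and 96.4%, and over 150 kb they were 69.8% and 97.9%. Camkk1, the 1 member with a window up to 50 kb, had no learning peak. Of the 4 members with windows of 50 to 150 kb, 3 had one (Camk2a, Camk2b and Camk2g, but not Camkk2). Of the 3 with windows over 150 kb, 1 had one (Camk1d, but not Camk2d or Camk4). With 8 genes these counts do not stand apart from the shares of their length classes.

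**Figure D2:**
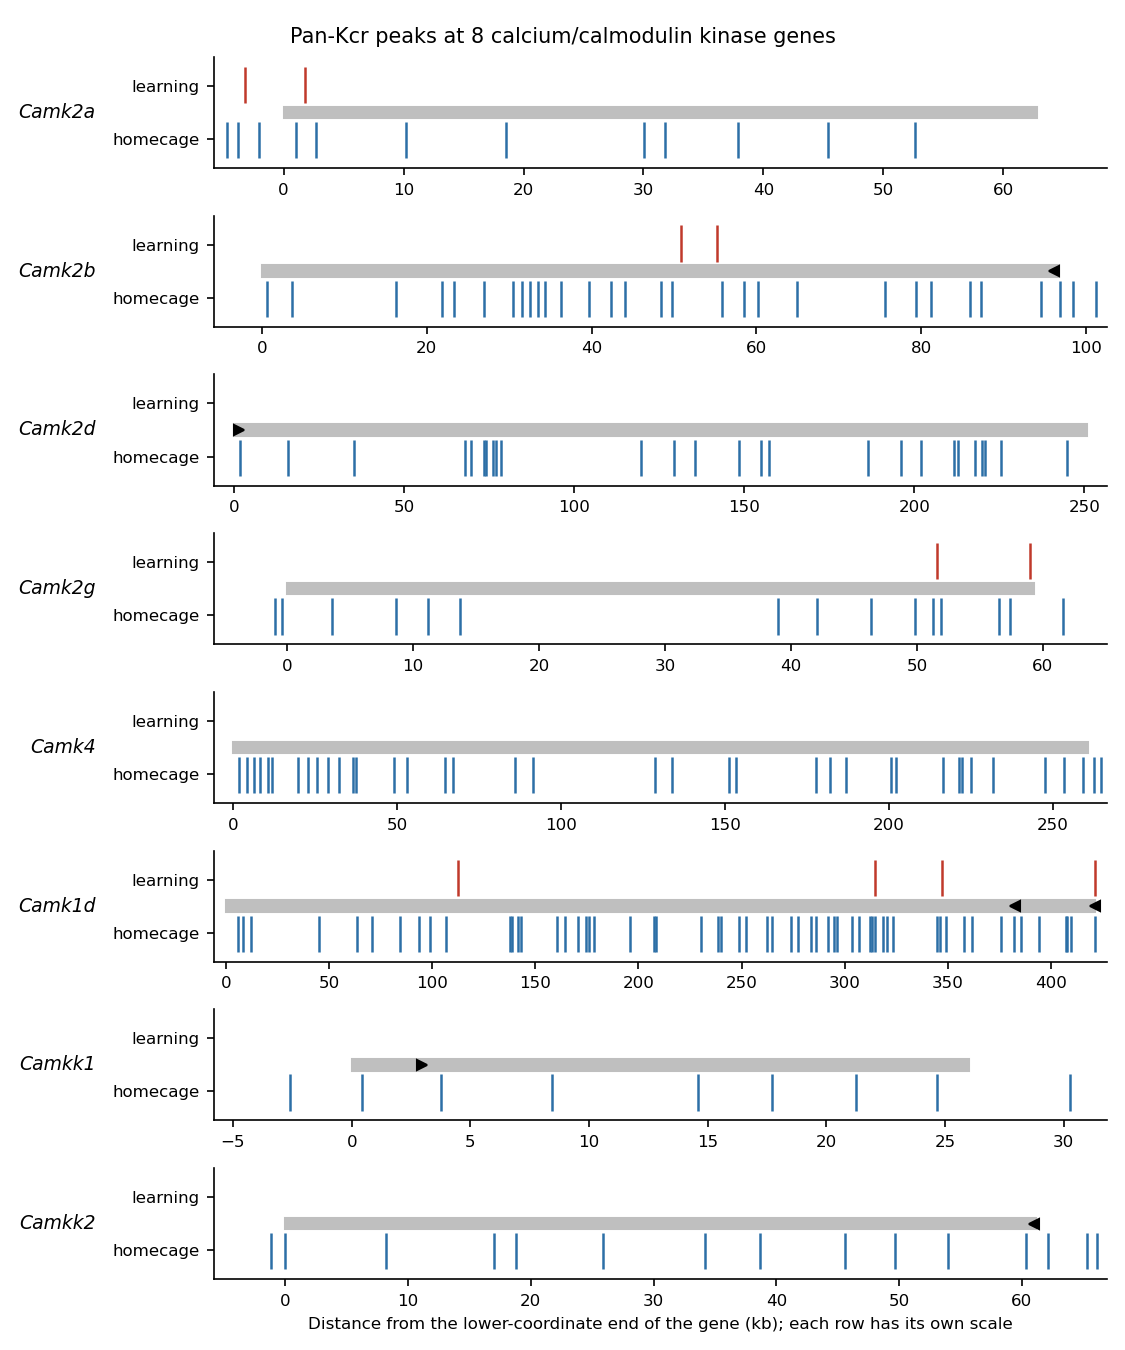
Learning peaks (red, above) and homecage peaks (blue, below) along each gene window, by distance in kb from the lower-coordinate gene end, with the gene body in grey and listed starts as black arrowheads. Learning peaks appear at Camk2a, Camk2b, Camk2g and Camk1d, 10 in all, and homecage peaks at all 8 genes, 203 in all.

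Camk2a, which encodes the alpha subunit of CaMKII and is strongly expressed in forebrain excitatory neurons, lies at chr18:60925307-60988152. It had 2 learning peaks, both near its lower-coordinate end. The wider (chr18:60921881-60922324, 444 bp) lay outside the gene, 2983 bp from that end. The narrower (chr18:60927021-60927166) lay 1714 bp inside the gene and was 146 bp wide. That is the smallest width in the learning list, and a Camk1d learning peak has it too. Homecage peaks were crowded around the same end. Within 5 kb of it lay 5 of the 12 homecage peaks, which covered 3746 bp there, while none lay within 5 kb of the other end. Of these, 2 were over 1 kb wide, one of 1219 bp outside the gene (chr18:60922615-60923833) and one of 1158 bp inside it (chr18:60925720-60926877). Neither learning peak overlapped a homecage peak. The outer learning peak fell between homecage peaks 119 bp and 291 bp away, and the inner one lay 144 bp from the 1158 bp peak. Farther into the gene, the other 7 homecage peaks were 273 to 853 bp wide and up to 11.2 kb apart.

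By its counts of 2 learning and 12 homecage peaks, Camk2a was like 34 other protein-coding genes. The 3 nearest to it in window length were Kif2a (73.4 kb, against 72.8 kb for Camk2a), Morn1 (71.9 kb) and Swap70 (71.8 kb). Homecage peaks covered 9.25% of the Camk2a window, and 6.93%, 8.41% and 7.49% of those 3 windows. This likeness rests on 2 counts from 2 libraries.

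Camk2b encodes the beta subunit of CaMKII, which binds actin, and lies at chr11:5969629-6066357 on the minus strand. Its 2 learning peaks were in the middle of the gene, 45.3 and 40.9 kb downstream of the start (peak centres). The wider was 552 bp (chr11:6024618-6025169), the widest learning peak at any of the 8 genes and wider than 88.6% of the learning list. The other was 250 bp (chr11:6020348-6020597), with 4020 bp between them. Neither overlapped a homecage peak, and the nearest were 127 bp and 835 bp away. Camk2b had 30 homecage peaks, 28.1 per 100 kb (exact Poisson 95% interval 19 to 40.1, counting error only). All genes with windows of 50 to 150 kb had 13.9 per 100 kb when pooled, and 98.5% of them had fewer than Camk2b. The 1 Mb around the Camk2b window, 500 kb on each side, held 14.6 homecage peaks per 100 kb, close to the value of the length class. Its widest homecage peak, 1406 bp (chr11:6029102-6030507), was also the widest of the 203 and lay 35.9 kb downstream of the start.

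Camk2g encodes the gamma subunit, which can carry calcium/calmodulin to the nucleus, and lies at chr14:20734873-20794157. Both of its learning peaks were near the higher-coordinate end. One of 263 bp (chr14:20793701-20793963) lay 194 bp inside that end and 1334 bp from the nearest homecage peak. The other, 374 bp (chr14:20786250-20786623), filled a space between homecage peaks of 147 and 211 bp, 4 bp from the first and 67 bp from the second. Camk2g had 15 homecage peaks, of 147 to 611 bp, the widest at chr14:20791098-20791708, and none reached 1 kb. They were uneven along the gene. No homecage peak lay in 24.7 kb (chr14:20748833-20773576), 41.7% of the gene, and when the gene body was cut into 5 equal stretches, the middle one had 0. The 2 homecage peaks just outside the lower end overlapped the neighbouring gene Ndst2, and the peak outside the higher end overlapped the long noncoding gene Gm30108.

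Camk2d encodes the delta subunit, the main CaMKII of heart muscle, and is one of the longer members (chr3:126595487-126846326). It had no learning peak, and the nearest lay 458 kb and 314 kb from its ends. Its 26 homecage peaks gave 9.97 per 100 kb (interval 6.51 to 14.6), the lowest density of the 8 genes. They covered 4.20% of the window. The peak over the start was the widest, and a second wide peak, 1126 bp (chr3:126752111-126753236), lay 156 kb downstream of it. The longest stretch between peaks was 40.6 kb.

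Camk4 (chr18:32934941-33195767) encodes CaMKIV, the nuclear kinase of this family. No learning peak lay in its window. The nearest was 24.9 kb beyond its higher-coordinate end, and on the other side the nearest was 375 kb away. Of its 38 homecage peaks, 14 had their centres in the first of 5 equal stretches of the gene body, counted from the lower-coordinate end, and the others had 5, 4, 5 and 8. None of these peaks reached 1 kb, but their median width, 335.5 bp, was close to the 351 bp of the whole homecage list. The widest was 593 bp (chr18:32987792-32988384), the smallest maximum among the 8 genes, while homecage peaks elsewhere in the family reached 611 to 1406 bp. No Camk4 homecage peak lay within 1 kb of either gene end.

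Camk1d encodes CaMKI delta and is the longest member, 421 kb (chr2:5293457-5714860, minus strand). It had 4 learning peaks, the most of the 8 genes, but at 0.927 per 100 kb its density was below that of Camk2g (2.89), Camk2a (2.75) and Camk2b (1.87). All of these rest on 2 to 4 peaks, and their counting intervals overlap. Besides the peak over the outer start, the learning peaks lay 35.4, 68.0 and 270 kb downstream of the nearest listed start. The peak at 68.0 kb (chr2:5607993-5608152, 160 bp) shared 130 bp, 81.2% of its width, with a homecage peak of 312 bp. This peak and the one over the start were the only learning peaks at the 8 genes that overlapped a homecage peak. The peak at 270 kb (chr2:5405587-5406019, 433 bp) lay farthest from any homecage peak, 5441 bp, and the peak at 35.4 kb (chr2:5640569-5640714, 146 bp) was 589 bp from one. Camk1d had 58 homecage peaks, 13.4 per 100 kb, close to the 13.0 of all genes with windows over 150 kb when pooled. The widest was 1081 bp (chr2:5501502-5502582), 174 kb downstream of the inner start.

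The kinase kinases had homecage peaks only. Camkk1, the alpha kinase kinase, is the shortest member (chr11:73016043-73042073) and had 9 homecage peaks, which covered 11.5% of its window, the highest share of the 8 genes. The 1342 bp peak just downstream of its start was the widest, and the other 8 peaks were 147 to 586 bp. Camkk2, the beta kinase kinase (chr5:122718380-122779522), had 15 homecage peaks that covered 11.2% of its window. Within 5 kb of its start-side end lay 4 of them, which covered 2537 bp, and a peak of 1136 bp (chr5:122734824-122735959) lay 44.0 kb downstream. At the other end, 3 Camkk2 peaks also overlapped P2rx4, 1 of them inside the Camkk2 gene body. The nearest learning peaks were 220 kb and 158 kb from the ends of Camkk1 and 59.8 kb and 190 kb from those of Camkk2.

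**Figure D3:**
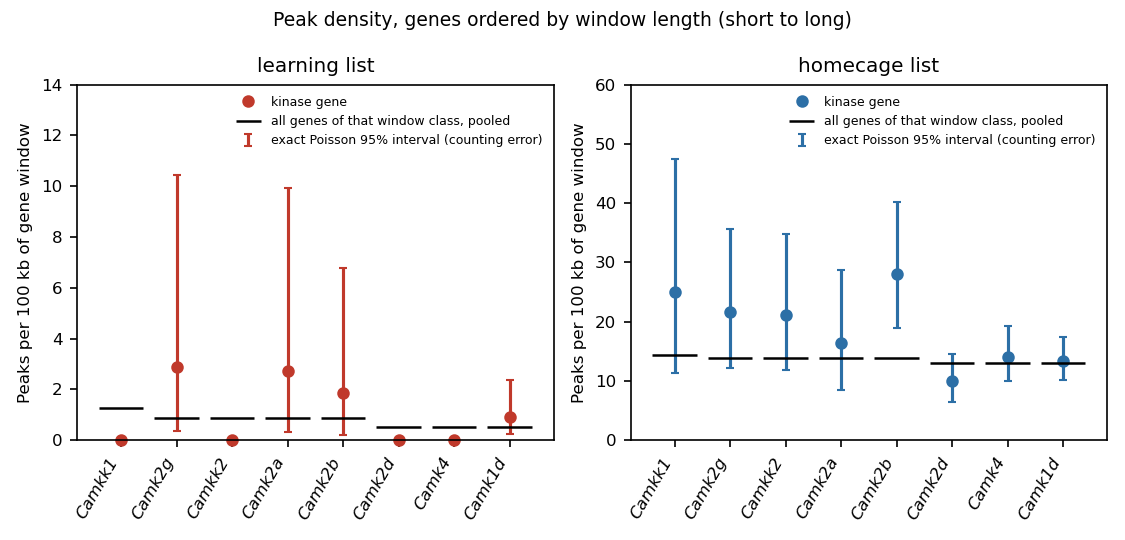
Learning (left) and homecage (right) peaks per 100 kb of gene window for each kinase gene, from the shortest to the longest window, with exact Poisson 95% intervals where a peak was called and, as black lines, the pooled value of all protein-coding genes in the same length class. In the homecage list Camk2b stands highest at 28.1 per 100 kb and Camk2d lowest at 9.97.

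Homecage density and cover differed between the shorter and the longer kinase genes. The 5 genes with windows up to 150 kb (Camk2a, Camk2b, Camk2g, Camkk1 and Camkk2) had 81 homecage peaks, 22.8 per 100 kb, which covered 10.1% of their windows. The 3 longer genes (Camk2d, Camk4 and Camk1d) had 122 peaks, 12.7 per 100 kb, which covered 4.58%. Cover ran from 7.38% (Camk2g) to 11.5% (Camkk1) in the shorter genes and from 4.20% (Camk2d) to 4.83% (Camk1d) in the longer ones, so the groups did not overlap. This split was seen in the values and then described, and it gets no test. Over all protein-coding genes the median cover hardly moved with length, at 5.17% for windows up to 50 kb, 5.43% for 50 to 150 kb and 5.21% above. Each of the 5 shorter genes had more cover than most genes of its class, from 78.9% of them for Camk2g to 96.3% for Camkk2, and each of the 3 longer genes had less than most (20.0% of the class was lower for Camk2d, 27.7% for Camk4 and 36.8% for Camk1d). By peaks per 100 kb the longer genes did not rank low as a group. Camk4 had more than 59.4% of its class and Camk1d more than 50.1%, and only Camk2d was low, above 11.2%. The shorter genes had more peaks per 100 kb than 71.3% (Camk2a) to 98.5% (Camk2b) of their classes. In the 500 kb on each side of the windows the density was 12.2 to 16.2 peaks per 100 kb for all 8 genes. The median cover over the 8 genes was 8.32%, against 5.26% over all protein-coding genes. Pooled over all bases of the windows, which gives the long genes more weight, the values were close, at 6.06% and 5.58%.

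**Figure D4:**
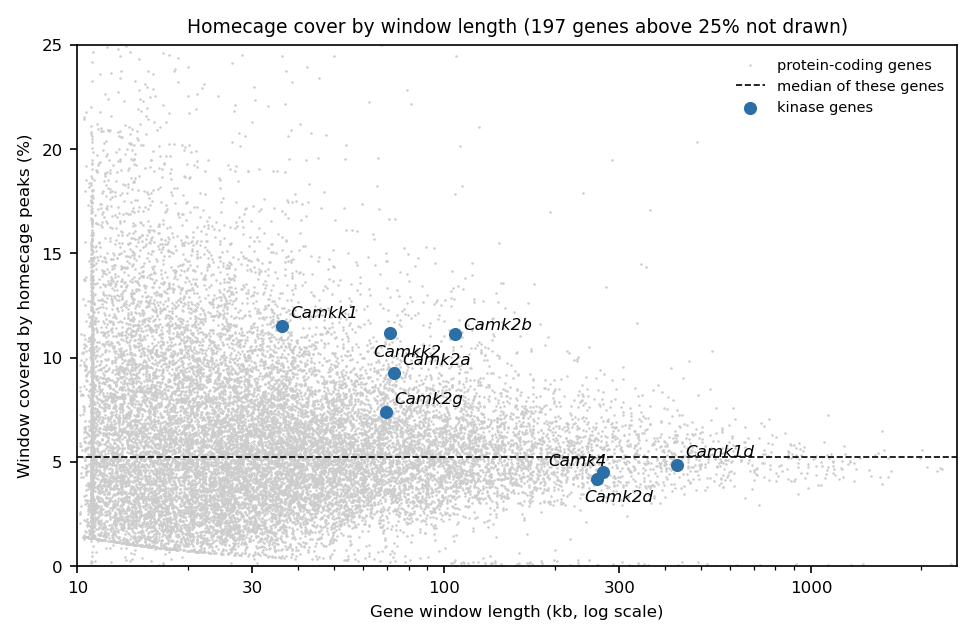
Percent of each gene window covered by homecage peaks against window length in kb (log axis), for all protein-coding genes (grey, dashed line at their median of 5.26%) and the kinase genes (blue). The 5 kinase genes with windows up to 150 kb lie between 7.38% and 11.5%, and the 3 longer ones between 4.20% and 4.83%.

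Peak widths in the family were like those of the lists. The learning peaks were 146 to 552 bp wide with a median of 306.5 bp, and the whole learning list had a median of 306 bp. The homecage peaks were 147 to 1406 bp wide with a median of 345 bp, against 351 bp for the whole list. At least 1 kb wide were 10 of the 203 (4.93%), compared with 3.04% of the homecage list. They lay at Camk2a, Camk2d, Camk1d and Camkk2 (2 each) and at Camk2b and Camkk1 (1 each). No learning peak at the family reached 1 kb.

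**Figure D5:**
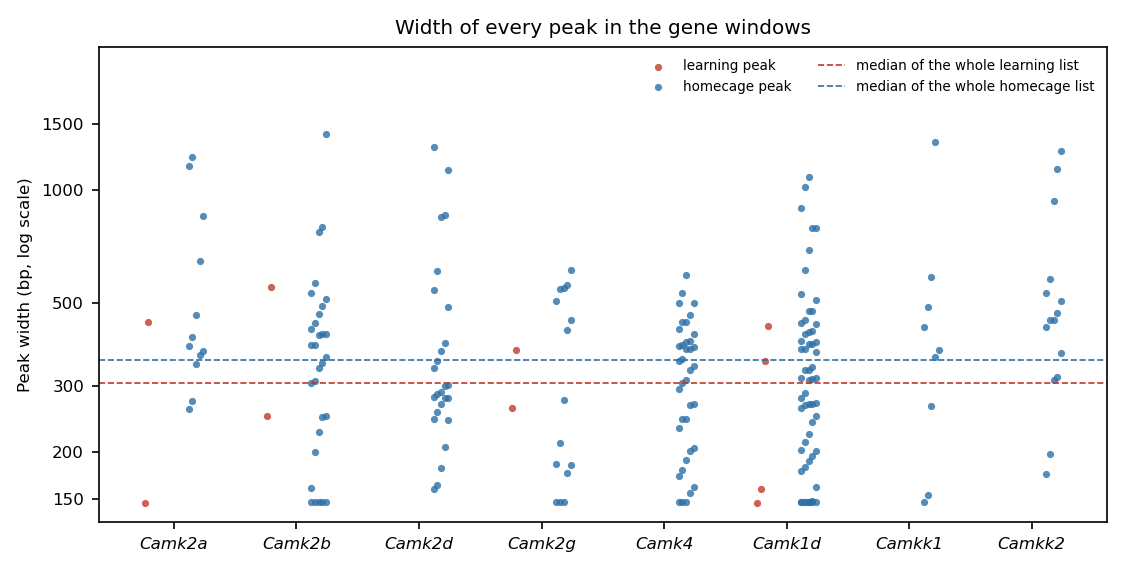
Width in bp (log axis) of every learning (red) and homecage (blue) peak at each kinase gene, with the medians of the whole lists as dashed lines (306 and 351 bp). Homecage peaks of at least 1 kb occur at 6 genes, and the Camk4 peaks end at 593 bp.

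Gene bodies made up 93.9% of the bases in the windows, so most peaks would fall inside the genes by the window rule alone. Of the learning peaks, 8 were inside, 1 outside and 1 across a gene end. Of the homecage peaks, 184 were inside, 16 outside and 3 across an end, and 11 overlapped another annotated gene. Of the 16 gene ends, 2 had a learning peak within 1 kb (Camk2g and Camk1d, each at the higher-coordinate end). The share over both ends of all protein-coding genes was 8.08%. A homecage peak lay within 1 kb of 8 of the 16 ends, against 38.7% of all ends, and both ends of Camk2b and of Camkk2 had one.

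The lists were then compared peak by peak. In the family, 2 of the 10 learning peaks met a homecage peak (20%, exact Clopper-Pearson 95% interval 2.52 to 55.6%). Over all learning peaks the share was 43.1%, and in the windows of all protein-coding genes 48.1%. Both lie within the interval of the family, so 10 peaks do not show a difference. At the CaMKII genes, none of the 6 learning peaks touched any of the 83 homecage peaks there, and both overlaps were at Camk1d. This split was seen in the values and then described, and with so few peaks it gets no test. Several misses were narrow. Of the 8 learning peaks without overlap, 4 had a homecage peak within 500 bp, compared with 23.5% of all learning peaks without overlap. A share from 8 peaks is known only roughly, and this difference was not tested. The distances ran from 4 to 5441 bp with a median of 366.5 bp. Counting overlap or a distance up to 500 bp together, 6 of the 10 family peaks (60%) had a homecage partner, close to 56.5% of the whole learning list. When peaks closer than 1 kb were merged, 5 of the 10 (50%) overlapped. Merging fills short gaps between peaks, and the merged share of the whole learning list was not computed, so this value has no background. Conversely, 2 of the 203 homecage peaks overlapped a learning peak (0.985%, interval 0.120 to 3.51%), against 2.05% of the homecage list.

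Other genes of calcium/calmodulin signalling were taken from a list of 33 genes. Of these, 21 had a learning peak and 32 a homecage peak, with Pnck, on chromosome X, as the 1 gene without either. By window length, 7 of 14 genes up to 50 kb had a learning peak, 10 of 12 genes of 50 to 150 kb, and 4 of 7 longer ones, to be read against the 23%, 45.3% and 69.8% of all genes given above. The median density over the list was 0.806 learning and 14.7 homecage peaks per 100 kb, against 0.464 and 18.8 over the 8 kinase genes and 0 and 13.8 over all protein-coding genes. Pooled over bases, the learning density was 0.859 per 100 kb for the list, 0.758 for the kinase genes and 0.854 for all protein-coding genes, so the order of the medians was not kept. The pooled homecage densities were 14.2, 15.4 and 13.7. Of the 31 learning peaks at the list, 18 overlapped a homecage peak (58.1%, interval 39.1 to 75.5%). The interval overlaps that of the kinase genes.

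By role, the calmodulin genes Calm2 and Calm3 had 1 learning peak each, of 310 and 637 bp, and the Calm3 peak overlapped a homecage peak. Of the genes grouped as calmodulin-binding proteins, Pcp4 and Camkv had a learning peak and Nrgn and Gap43 had none. Among the other kinases these were Dapk1, Dapk2 and Eef2k, the kinase of elongation factor 2, but not Camk1, Camk1g, Pnck or Mylk. Camk2n1, an inhibitor of CaMKII, had 3 learning peaks in a window of 15.0 kb, the widest of 947 bp (chr4:138454959-138455905), while its relative Camk2n2 had none. The phosphatases of CaM kinases, Ppm1e and Ppm1f, had 1 and 3, all of which overlapped homecage peaks. Of the 7 genes of calcineurin and its regulators, 6 had a learning peak. These were the subunit genes Ppp3ca, Ppp3cb, Ppp3cc and Ppp3r1 and the regulator genes Rcan1 and Rcan2, but not Rcan3. Ppp3ca and Rcan2 have windows over 150 kb, where 69.8% of all genes had one. Ppp3cb, Ppp3cc, Ppp3r1 and Rcan1 have windows of 50 to 150 kb, where the share was 45.3%. No role was tested against such shares. Of the 8 calmodulin-dependent enzymes, Adcy1, Pde1b, Pde1c and Itpkb had a learning peak, with 790 bp (chr1:180332896-180333685) the widest at Itpkb. Adcy8, Pde1a, Nos1 and Itpka had none. The widest homecage peak of the list lay at Ppp3ca (2021 bp, chr3:136670287-136672307), and Ppm1e had one of 1443 bp (chr11:87357563-87359005).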

How the data were processed

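Each deposited file is a peak list of one antibody library with 4 columns, the chromosome, start, end and a peak name, and its values are positions in base pairs. The authors called broad peaks at a p-value threshold of 0.01, per the peak names in the deposited files. MACS2, BWA, Trimmomatic and the build mm10 are named, without versions, in the submitters' processing notes. Whether an input library served as control is not given in the sources used here, and depth is unknown. Mouse build mm10 is GRCm38, so gene positions were taken from a RefSeq GRCm38.p6 table and starts from RefSeq start windows of that build.

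Positions are printed 1-based. Peaks on chromosomes 1 to 19, X and Y were counted at a gene if at least 1 bp lay in the gene body or within 5 kb of it, and 1 bp in common made a pair of peaks from both lists shared. Distances between peaks run from edge to edge. Shares carry exact Clopper-Pearson and densities exact Poisson 95% intervals, which cover counting error only. Named were all 8 kinase genes, the pathway genes with a learning peak, those with the 3 widest peaks in each list, and the genes most like Camk2a, except 1 pathway gene that enters the counts and is not reported here. Members, lists and rules were chosen with earlier results of these data known. The overlap functions were tested on simulated peaks. Alternatives were other flanks, peak centres, width minimums, merging, stricter or looser overlap and a shortened homecage list. Scripts ran in Python 3.11.15 with scipy 1.17.1 for the intervals, pandas 2.3.3, matplotlib 3.10.9 for plots and numpy 2.4.6.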

Additional observations from a re-analysis of the deposited data

How the results depend on the processing

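No paired analysis was possible because a single antibody library stood for each condition, and for the same reason none could be left out. Thresholds on q or p and a homecage list shortened by strength were not run, since the files as analysed hold no strengths. Of 71 recomputed summary values, 54 stayed within 1.5 times (counts) or within the counting interval (densities and shares), and 17 moved. The interval from 10 learning peaks is wide, so the rules can differ. With peaks of 300 bp or more, the fall from 10 to 5 learning peaks counted as moved. The matching fall in density, from 0.758 to 0.379 per 100 kb, counted as unchanged. Of 112 recomputed peak counts of single genes, 90 stayed within 1.5 times and 22 moved. The 90 include the counts of 0 learning peaks at Camk2d, Camk4, Camkk1 and Camkk2, which only the flank of 10 kb could have changed. Camk2a had 1 learning peak in place of 2 without a flank or with a flank of 2 kb. Keeping peaks of 300 bp or more, the 8 genes had 5 learning and 122 homecage peaks, 9.25 homecage peaks per 100 kb. Keeping peaks of 500 bp or more, 1 of the 8 genes had a learning peak (Camk2b), with 1 peak in all, 0.0758 per 100 kb, of which 0% overlapped a homecage peak. The homecage peaks then numbered 40, or 3.03 per 100 kb, and 7 of the 33 pathway genes had a learning peak. Merging peaks closer than 1 kb gave 13.3 homecage peaks per 100 kb and raised the shared learning peaks at the 8 genes from 20% to 50% (5 of 10), within the counting interval of the first value. The shared learning peaks at the 8 genes were 0% when the common stretch had to reach 50% of each peak and 60% when a homecage peak within 500 bp counted as shared. With the homecage list shortened to its 16002 widest peaks (884 bp or more), the 8 genes had 12 homecage peaks, 0.910 per 100 kb, none of the learning peaks was shared (0%), and 18 pathway genes had a homecage peak. A width minimum and a shortened list remove peaks by construction. Except for the distance of 500 bp, no alternative was recounted over all protein-coding genes or the whole lists. The counts and shares under the alternatives therefore have no background and describe no trait of the kinase or pathway genes.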

Other observations

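Peak lists of whole tissue carry no expression level, so cell types could not be checked by expression, and 9 cell type marker genes were looked up for peaks only. All 9 had a homecage peak within the same windows, and 4 had a learning peak. Over all protein-coding genes these shares were 90.5% and 30.9%. Among genes with windows of such lengths, learning peaks lay at 23% (up to 50 kb) and 45.3% (50 to 150 kb). With 9 genes the marker counts cannot be set apart from these shares. Mbp, the myelin basic protein gene of oligodendrocytes, had 4 learning and 33 homecage peaks, and the microglial receptor gene Cx3cr1 had 2 and 7. The granule cell gene Prox1 had 1 and 14, and the astrocyte gene Gfap had 1 and 5. Slc17a7, Wfs1, Aqp4, Mog and P2ry12 had no learning peak and 5 to 11 homecage peaks. A peak at a marker gene does not show which cells it came from, so the kinase gene peaks cannot be assigned to neurons or glia from these lists.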
